A study of Rattus norvegicus with 12 samples.

Results

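Inherited cysts of the liver or kidney follow mutation of the genes examined here: Pkhd1, Pkd1, Pkd2, Bicc1, Prkcsh, Sec63, Ganab, Lrp5 and Alg8. They were chosen by name, as the gene symbol given by the array's annotation, and all 9 of the 9 had a row among the 16592 probe sets with a gene symbol, each gene with 1 probe set. RNA of snap-frozen liver was hybridised to Affymetrix arrays for 6 PCK rats, described as cystic livers of the strain Crj:CD/SD, and for 6 healthy Sprague Dawley rats as controls. All 12 animals were male, 10 weeks old, fed a standard diet with 19% protein, and anaesthetised with isoflurane before they were killed. The PCK rat is a colony derived from Sprague Dawley rats that carries a spontaneous splice-site mutation of Pkhd1 in all tissues and forms cysts in bile ducts and kidney tubules. The mutation and any other difference between the 2 colonies cannot be told apart here. Values are log2 signals, on which a difference of 1 is a 2-fold difference; over all probe sets they ran from 5.14 to 13.98 with a median of 5.66.

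Cystic disease of the liver arises from bile duct epithelium. Pkhd1 encodes fibrocystin, a large membrane protein of the primary cilium of duct cells, and in humans its loss causes autosomal recessive polycystic kidney disease with malformed bile ducts. Pkd1 and Pkd2 encode polycystin-1 and polycystin-2, which sit together in the cilium and are mutated in human autosomal dominant polycystic kidney disease. Prkcsh, Ganab, Sec63 and Alg8 act in the endoplasmic reticulum, where membrane proteins such as polycystin-1 are inserted, glycosylated and folded; with Lrp5, a co-receptor for Wnt ligands, they are mutated in human polycystic liver disease. Bicc1 encodes a protein that binds RNA, and mice without it form cystic kidneys.

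The promoter windows of Pkhd1 and Bicc1 are shown because these 2 members rose most. Capitals mark each CG pair, the place where vertebrate DNA is methylated, which reads the same on both strands. Of the 9 members, 8 had a window in the RefSeq promoter table for GRCr8, which sets 250 bases before and 50 after 1 start site per gene, and Lrp5 had none. That start site was the outer end of the gene's annotated span for 3 of the 8, Pkhd1 among them, and lay inside the span for the others, by 20 bases for Bicc1 and by up to 946 for Pkd1. The windows lie at chr9:30533785-30534084 on the minus strand for Pkhd1 and at chr20:17448515-17448814 on the plus strand for Bicc1, and read 5′ to 3′ along the gene.
Pkhd1: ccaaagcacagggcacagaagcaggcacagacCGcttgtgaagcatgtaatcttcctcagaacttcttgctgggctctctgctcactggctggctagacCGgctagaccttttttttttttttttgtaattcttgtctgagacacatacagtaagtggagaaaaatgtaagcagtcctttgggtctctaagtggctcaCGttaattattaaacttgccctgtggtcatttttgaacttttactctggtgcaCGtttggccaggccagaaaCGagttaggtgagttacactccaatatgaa
Bicc1: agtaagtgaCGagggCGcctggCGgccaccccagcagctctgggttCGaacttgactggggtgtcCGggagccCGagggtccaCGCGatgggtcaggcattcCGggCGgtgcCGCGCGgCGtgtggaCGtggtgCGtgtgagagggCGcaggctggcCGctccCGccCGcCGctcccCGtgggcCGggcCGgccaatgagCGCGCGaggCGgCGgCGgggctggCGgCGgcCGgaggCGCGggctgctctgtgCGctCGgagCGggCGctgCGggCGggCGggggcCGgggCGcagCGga

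The Pkhd1 window stood apart from those of the other members in base composition. Its G and C content was 44.3%, against 55.3% to 78.3% in the 7 others and a median of 51.7% over all windows, and it held 5 CG pairs against 19 to 45. Over all 33469 windows in the table the median was 7 CG pairs, and 94.5% held at least 1. Bicc1 had the highest values among the members, 78.3% G and C and 45 CG pairs. These are descriptions of sequence, and neither methylation nor the binding of any factor was measured.

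Of the 9 genes 5 changed: Bicc1, Pkhd1, Pkd2 and Prkcsh were higher in PCK livers and Sec63 was slightly lower. Pkd1, Ganab, Alg8 and Lrp5 did not pass the test. Each gene was tested with limma over all 16592 genes, and a gene was called at a Benjamini-Hochberg adjusted p under 0.05. By this rule 38.3% of all genes were called, 17.4% higher and 21.0% lower in PCK livers, so calls of the members have to be read against a background in which calls were frequent. Among the members 55.6% were called, 4 of 9 higher and 1 of 9 lower. Brighter genes were called more often, and 8 of the 9 members had a mean signal above the median of all genes. Of these 8 members 4 were called, against 54.5% of all 8295 genes above the median, so the members' share was no higher than that of bright genes. In 4 of 9 members every PCK value lay above every control value, where 11.0% of all genes did so. That share was not taken among bright genes alone. The median difference of the 9 members was 0.054 on the log2 scale, against -0.0067 over all genes. The size of the change set Bicc1 and Pkhd1 apart from the rest. Both exceeded a 2-fold difference, as 1.60% of all genes did in either direction, and the other 7 members lay within the range of -0.36 to 0.38 that holds the middle 90% of genes.

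**Figure D1:**
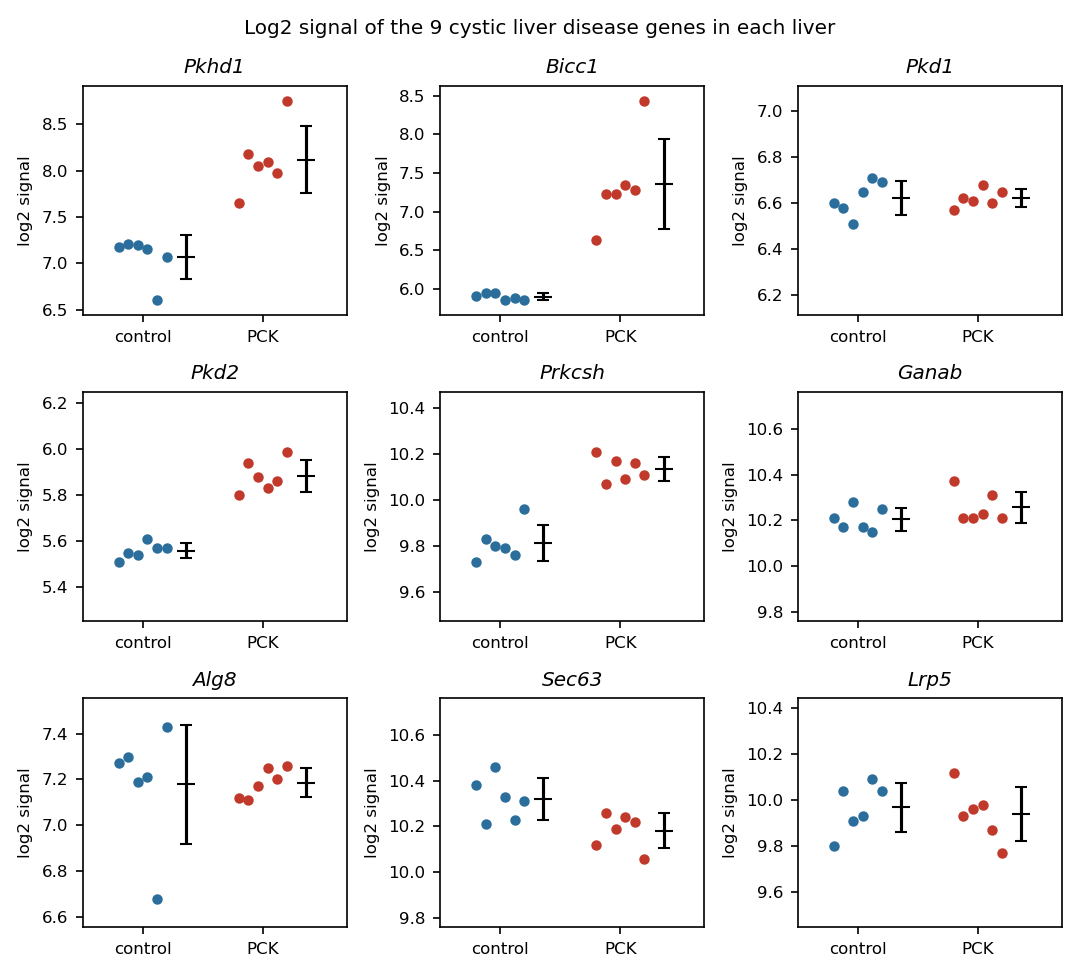
Log2 signal of each member in each liver, with controls in blue, PCK livers in red and the mean ± SD of 6 livers in black; the axes differ between panels and do not start at 0. Pkhd1, Bicc1, Pkd2 and Prkcsh have PCK livers wholly above controls, and 1 control liver stands low for Pkhd1 at 6.60 and for Alg8 at 6.68.

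Pkhd1, the gene mutated in the PCK rat, gave a higher signal in the mutant livers. Control livers ran from 6.60 to 7.21 with a median of 7.16 and PCK livers from 7.65 to 8.75 with a median of 8.07 (log2 signal, n = 6 each). The groups did not overlap, and control 5 and PCK 6 were the extremes at either end. The means were 7.07 ± 0.23 in controls and 8.12 ± 0.36 in PCK livers (SD), a difference of 1.05 ± 0.17 (log2, SE; 95% interval 0.68 to 1.41; limma adjusted p = 0.000462), or 2.07-fold. Without both control 5 and PCK 6 it was 0.83 (adjusted p = 0.000116). The position of the probes relative to the splice-site mutation is not known here, so the signal checks neither the genotype nor whether the transcripts encode a full protein.

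Bicc1, which binds messenger RNAs through KH domains, showed the largest difference of the 9 genes. Its signal was nearly flat in controls, 5.85 to 5.95 with a median of 5.90, and spread widely in PCK livers, from 6.63 to 8.43 with a median of 7.26. PCK 6 was highest and PCK 1 lowest among the mutants for Bicc1, as they were for Pkhd1. The difference was 1.46 ± 0.23 (log2, SE; 95% interval 0.96 to 1.96; limma adjusted p = 0.000420), or 2.75-fold, and it was 1.24 without PCK 6. The control signal of 5.90 was close to the median of the whole table, and with no detection calls the fold of a gene so near the floor of the signal is not exact. The difference of Bicc1 exceeded that of Pkhd1 by 0.41 on the log2 scale (exact permutation test over 924 assignments of livers, 2-sided p = 0.0130, adjusted over 3 pairs of members p = 0.0130). These 3 pairs were chosen after the values were seen, so their p-values describe these livers and are no independent support.

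Pkhd1 and Bicc1 are made in duct cells in the liver, and markers of duct cells moved in the same direction. Of 19 measured bile duct markers out of 25 listed, 16 rose and none fell, and the median difference was 0.44. Over all genes 17.4% were called higher and 21.0% lower. Krt19, a duct keratin, rose by 1.88 on the log2 scale, the tetraspanin Tspan8 by 1.54 and the adhesion protein Epcam by 0.90. The summed signal of the 19 markers, on the linear scale, ran from 2885 to 3392 in controls and from 3910 to 5372 in PCK livers. This sum is led by the brightest markers, Cdh1 (10.05 in controls), Krt8 (9.50) and Onecut1 (8.12). Cdh1 and Onecut1 did not pass, and Onecut1 ran from 7.68 to 10.49 in PCK livers. The sum is therefore no measure of the amount of duct tissue. None of the markers is at 0 on a log2 scale; several lay near the bottom of the range, such as the chloride channel gene Cftr at 5.37 in controls, and Sox9 and Spp1 were not analysed here. More duct cells and more RNA per duct cell cannot be told apart in whole liver.

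To set both genes against the marker list, the mean log2 signal of the 19 markers was subtracted from that of the gene within each liver. Pkhd1 and Bicc1 were known to be the members that rose most, so the p-values below are no independent support. The mean holds markers near the floor of the signal in controls (Cftr at 5.37, Elf3 at 5.36 and Cldn7 at 5.33) and markers with a high control signal (Cdh1 at 10.05 and Onecut1 at 8.12), so part of a gain over it follows from these choices, and its size is a description of these livers. For Pkhd1 the result ran from 0.29 to 0.89 in controls and from 0.91 to 1.69 in PCK livers, so the groups were adjacent but did not overlap. Its mean was 0.74 ± 0.23 in controls and 1.24 ± 0.27 in PCK livers (SD, n = 6 each), a gain of 0.50 (2-sided exact permutation p = 0.00216, which is the lowest that 924 assignments can give). For Bicc1 it ran from -0.54 to -0.36 in controls and from -0.10 to 1.38 in PCK livers, a gain of 0.91 (exact permutation p = 0.00216). Without control 5 and PCK 6 the gains were 0.32 and 0.73 (exact permutation p = 0.00794 for both, the lowest that the remaining livers can give). Against the brighter markers alone, those above the median signal of all genes, the gain of Pkhd1 was 0.37 (exact permutation p = 0.0108) and that of Bicc1 0.78 (exact permutation p = 0.00216). The brighter set still held Cdh1 and Slc4a2, which hardly moved (0.059 and 0.029), so these gains also follow in part from the choice of markers. Whether either gene rose by more than duct cells did was not tested. Of the 19 markers 17 had a smaller difference than Pkhd1 or Bicc1, and Krt19 and Tspan8 had a larger one.

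**Figure D2:**
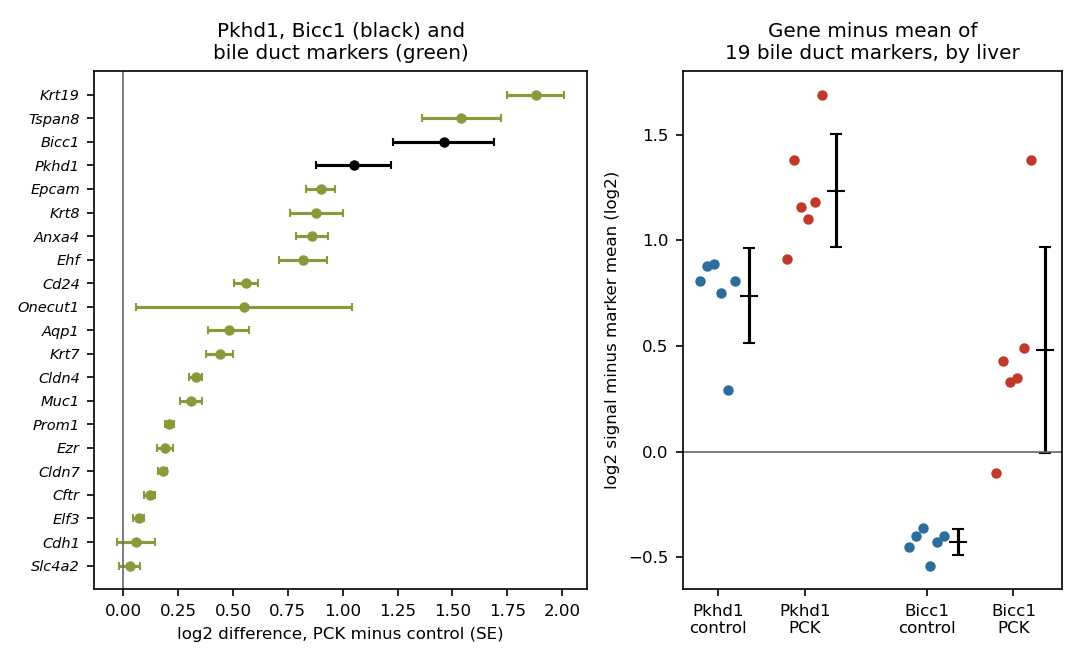
Left, log2 difference between PCK and control livers with its SE for 19 bile duct markers (green), Pkhd1 and Bicc1 (black); right, log2 signal of each gene minus the mean of the 19 markers in each control (blue) and PCK (red) liver, with mean ± SD. Krt19 and Tspan8 alone among the markers exceed both genes, and the gains over the marker mean are 0.50 and 0.91.

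Genes of other cell types moved as well, where 38.3% of all genes were called. Macrophage markers were higher in 11 of 13 and lower in 1. Lyz2, a lysozyme, was up by 2.35, Lgals3, a galectin, by 1.39 and Clec4f, a lectin of Kupffer cells, by 0.83. Cd14 was lower (-0.62), with PCK livers wholly below controls. The summed signal of the macrophage markers was 3928 to 6004 in controls and 8087 to 10861 in PCK livers. Lyz2 was the brightest of them in PCK livers, at 11.29 against 8.94 in controls, so it weighs heavily in this sum. Stellate cell and fibroblast markers were higher in 10 of 16 and lower in 3 (summed signal 1531 to 2190 in controls and 2971 to 3796 in PCK livers). The largest rises were the proteoglycan Dcn at 2.01, Rgs5 at 1.42 and the receptor Pdgfrb at 0.94. Dcn was also the brightest of the 16, at 8.33 in controls and 10.34 in PCK livers, so it weighs most in their sum. Hgf (-0.44), Reln (-0.29) and Lrat (-0.24) were lower, each with PCK livers wholly below controls. Col1a2, Col3a1 and Pdgfra did not pass. Endothelial markers were lower in 6 of 12 and higher in 1 (summed signal 4398 to 5283 in controls and 3699 to 4395 in PCK livers). The largest falls were Clec4g at -0.99, Ehd3 at -0.49 and Flt1 at -0.43, and Vwf was higher by 0.12. Hepatocyte markers marked all 12 samples as liver, with a summed signal of 167909 to 178042 in controls and 167752 to 175330 in PCK livers. These sums are led by probe sets at the top of the scale. Alb, albumin, stood at the highest value of all, 13.98, in all 12 livers, and Tf, transferrin, at 13.88 in every PCK liver. All 12 arrays hold the same sorted values, so signals at the top of the scale are held level. Near-equal sums therefore cannot show that hepatocyte signal was unchanged. Of the 20 measured, 3 were higher and 7 lower. The tryptophan enzyme Tdo2 (-0.36), the factor Hnf4a (-0.29) and Cyp2e1 (-0.20) fell, while Hpx (0.16), Hp (0.12) and Apob (0.057) rose. The largest differences either way, G6pc at 0.77 and Cyp7a1 at -0.79, did not pass. The part of these cell types in the differences of the 9 members was not tested.

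The polycystin genes behaved unlike each other. Pkd2, a cation channel of the cilium and endoplasmic reticulum, ran from 5.51 to 5.61 in controls, median 5.56, and from 5.80 to 5.99 in PCK livers, median 5.87. Every PCK liver was above every control, by a small margin. The difference was 0.32 ± 0.030 (log2, SE; 95% interval 0.26 to 0.39; limma adjusted p = 1.17e-05), or 1.25-fold. The Pkd2 signal lay at the median of all genes, so its fold, like that of Bicc1, is not exact. Pkd1, whose large protein is the partner of polycystin-2, ran from 6.51 to 6.71 in controls and from 6.57 to 6.68 in PCK livers, with a median of 6.62 in both groups, and its groups overlapped almost entirely. Its difference was 0.00065 (95% interval -0.071 to 0.072; limma adjusted p = 0.990). The difference of Pkd2 exceeded that of Pkd1 by 0.32 (exact permutation p = 0.00216, adjusted over the 3 pairs p = 0.00325). This pair was chosen with both differences already seen, so its p-values are no independent support. Of 5 measured relatives of the polycystins and fibrocystin, all near the bottom of the signal range, Pkhd1l1, the gene most like Pkhd1 in its protein, was higher by 0.054 (adjusted p = 0.0234) and Pkdrej, a polycystin relative of the testis, was lower (-0.045; adjusted p = 0.0254). Neither call held without control 5 and PCK 6 (limma adjusted p = 0.0845 and 0.0776), that of Pkhd1l1 was lost without PCK 5, and that of Pkdrej without PCK 6 or control 3.

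The subunits of glucosidase II also differed. This enzyme trims glucose from new N-glycans; Ganab encodes its catalytic alpha subunit and Prkcsh its beta subunit, which holds the enzyme in the endoplasmic reticulum. Prkcsh ran from 9.73 to 9.96 in controls, median 9.79, and from 10.07 to 10.21 in PCK livers, median 10.13. All PCK livers were above all controls. The difference was 0.32 ± 0.037 (log2, SE; 95% interval 0.24 to 0.41; limma adjusted p = 5.31e-05), or 1.25-fold, at a signal brighter than that of 92.5% of genes. Ganab ran from 10.15 to 10.28 in controls, median 10.19, and from 10.21 to 10.37 in PCK livers, median 10.22. These ranges overlapped, and the difference of 0.054 did not pass (95% interval -0.018 to 0.13; limma adjusted p = 0.226). Prkcsh minus Ganab was -0.39 ± 0.076 in controls and -0.12 ± 0.043 in PCK livers (log2, SD, n = 6 each). The difference between the changes of the subunits was 0.27 (exact permutation p = 0.00216, adjusted over the 3 pairs p = 0.00325). This pair too was chosen with both differences already seen, so its p-values are no independent support.

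Sec63 and Alg8 act before glucosidase II. Sec63 encodes a partner of the Sec61 channel through which new proteins enter the endoplasmic reticulum, and ran from 10.21 to 10.46 in controls, median 10.32, and from 10.06 to 10.26 in PCK livers, median 10.20. The groups overlapped. The difference was -0.14 ± 0.047 (log2, SE; 95% interval -0.24 to -0.037; limma adjusted p = 0.0346), and the call was lost when any 1 of 7 of the 12 livers was left out, at adjusted p up to 0.0719. Those livers were PCK 1, 3 and 6 and control 1, 3, 4 and 6. Alg8 encodes the enzyme that adds the second glucose to the glycan precursor, and ran from 6.68 to 7.43 in controls, median 7.24, and from 7.11 to 7.26 in PCK livers, median 7.18. The PCK values lay inside the control range. Its difference was 0.0016 (95% interval -0.23 to 0.23; adjusted p = 0.992), and control 5 at 6.68 stood below the other controls at 7.19 and above. Without control 5 the difference was -0.10 (adjusted p = 0.111). The same liver had the lowest mean over the genes of protein entry and N-glycan assembly, 9.11 on the log2 scale, against 9.26 to 9.39 in the other controls and 9.28 to 9.33 in PCK livers.

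**Figure D3:**
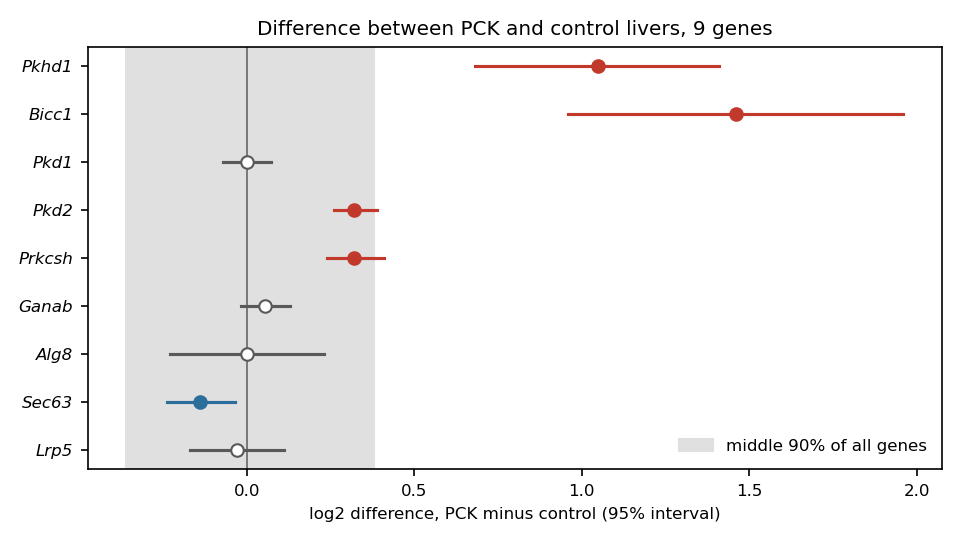
Log2 difference between PCK and control livers for the 9 members (n = 6 each), with 95% intervals; filled red points were called higher, filled blue lower, and open grey points were not called. The grey band holds the middle 90% of all genes, from -0.36 to 0.38, and Pkhd1 at 1.05 and Bicc1 at 1.46 lie outside it.

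Around these members, genes of protein entry, N-glycan assembly and glucose trimming were split in direction. Of 50 measured out of 58 listed, 15 were higher and 9 lower, 48.0% called, and the median difference was 0.027. Of the 48 genes of this list above the median signal 47.9% were called, against 54.5% of all genes above it. Mogs, glucosidase I, which removes the outermost glucose just before glucosidase II acts, fell (-0.48; limma adjusted p = 0.000448), as did Dpm1, a subunit of the enzyme that makes the mannose donor for glycan assembly (-0.39; adjusted p = 0.000941). Dnajb9, a chaperone of the unfolded protein response, was lower at -0.50 (adjusted p = 0.0329), a call lost without PCK 1, 2, 3 or 6 or control 1 or 3 (adjusted p up to 0.0707). Tusc3, a subunit of the transferase that attaches the glycan, rose by 0.30 (adjusted p = 1.80e-07) from a control level of 5.42, near the bottom of the range. Alg6, which adds the glucose before the step of Alg8, rose by 0.20 (adjusted p = 0.00132). Alg10, which adds the last glucose and was picked after its value was seen, was at -0.13 and did not pass (adjusted p = 0.168).

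Other genes of inherited cystic disease changed little. Of 23 measured out of 28 listed, 6 were higher and 3 lower, 39.1% called, close to the share of all genes, and the median difference was 0.043. Of the 17 above the median signal 41.2% were called, against 54.5% of all genes above it. None reached 2-fold; the range was -0.10 to 0.25. Alg9, a mannosyltransferase gene mutated in some families with kidney and liver cysts, rose by 0.21 (adjusted p = 0.00554), and Alg6, above, by 0.20. Tmem67, a protein of the ciliary base linked to human liver fibrosis, rose by 0.19 (adjusted p = 0.00110). The 3 lower were Cys1 (-0.10), Invs (-0.09) and Anks3 (-0.064). Alg6, Tmem67 and these 3 had control signals of 5.65 to 5.86, near the median of all genes, so their folds are not exact.

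Lrp5 ran from 9.80 to 10.09 in controls, median 9.98, and from 9.77 to 10.12 in PCK livers, median 9.94. The ranges were nearly the same. Its difference was -0.030 ± 0.062 (log2, SE; 95% interval -0.17 to 0.11; limma adjusted p = 0.751). Lrp6, the other Wnt co-receptor of this type, was higher by 0.25 (adjusted p = 0.0287, and up to 0.0606 without control 4 or 6, where the call was lost); whether the 2 co-receptors differed from each other was not tested. Of 41 measured Wnt receptors, inhibitors and pathway genes out of 44 listed, 10 were higher and 13 lower, with a median of -0.019. The share called was 56.1%, against 38.3% of all genes. Of the 21 above the median signal 66.7% were called, against 54.5% of all genes above it. The receptor Fzd8 fell (-0.98; adjusted p = 4.60e-05), as did the receptors Ror1 (-0.76; adjusted p = 6.44e-05) and Ryk (-0.33; adjusted p = 0.000163), and Ctnnb1, which encodes beta-catenin, rose by 0.34 (adjusted p = 7.86e-06).

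Cyclic AMP drives fluid secretion and division of cystic duct cells. Of 36 measured genes of this pathway out of 39 listed, 4 were higher and 7 lower, with a median of -0.00081. The share called was 30.6%, against 38.3% of all genes. Among the 14 above the median signal of all genes, 7 were called, against 54.5% of all genes above it. Signals were those of whole liver, and the cell type in which these genes changed was not tested. Rapgef4, a cyclic AMP sensor also called Epac2, fell (-1.14; adjusted p = 1.35e-05), and Akap5, an anchor of protein kinase A, was lower (-0.42; adjusted p = 0.00404), at 5.43 in PCK livers, near the bottom of the range. The inhibitory G protein subunits Gnai2 and Gnai1 rose by 0.87 (adjusted p = 3.19e-06) and 0.39 (adjusted p = 0.00253).

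**Figure D4:**
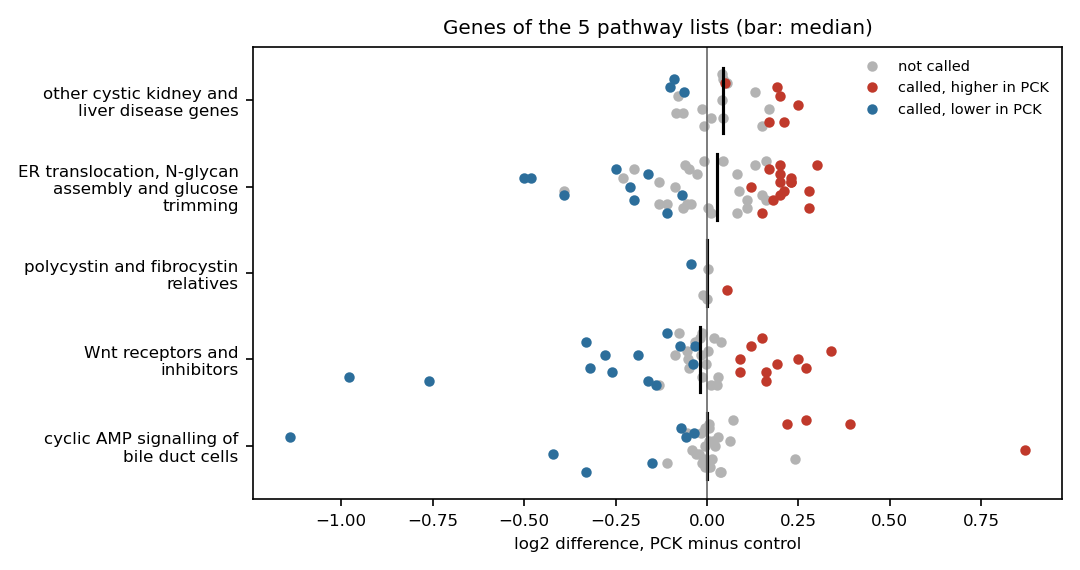
Log2 difference between PCK and control livers for each measured gene of the 5 pathway lists (n = 6 each), called higher in red, called lower in blue and not called in grey, with a black bar at the median of each list. Medians lie between -0.019 and 0.043, with called genes on both sides.

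Among brighter genes the profiles most like that of Pkhd1 over the 12 livers were sought by the root mean square difference, after each gene was centred on its own mean. The closest were Anxa13, an epithelial annexin (0.16 on the log2 scale), the gap junction gene Gja1 (0.17), Ehf, an epithelial transcription factor (0.18), the small GTPase Rras (0.20) and the hyaluronan receptor Cd44 (0.20). Ehf is 1 of the 19 duct markers. The 5 closest to Bicc1 were Plat, the tissue plasminogen activator (0.14), the mesothelial antigen gene Msln (0.21), the calcification inhibitor Mgp (0.21), Prtfdc1 (0.21) and the duct marker Tspan8 (0.23). These profiles hold the difference between the groups, so the choice itself fixes that the 10 genes were higher in PCK livers, by 0.82 to 1.14 for the first 5 and by 1.33 to 1.56 for the others.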

How the data were processed

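Total RNA of 12 livers was isolated with Trizol and hybridised as biotinylated cRNA to Affymetrix arrays, as the labels' protocols state. The authors deposited 1 table of log2 signals for 19239 probe sets; all 12 columns hold the same sorted values, so a difference in total RNA between livers is not seen. The method of summarisation and normalization is not given in the sources used here, and the table holds no detection calls. Arrays give no read depth; their number limits the precision. By the platform annotation 16592 probe sets had 1 gene symbol, 0 had several and 2647 had none. Symbols were matched to current ones through the RefSeq gene table of GRCr8.

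Genes were fitted with limma 3.58.1 in R 4.3.3 (lmFit, eBayes, 2-sided, 6 PCK against 6 control livers) on the deposited log2 values with no filter, and p was adjusted over all 16592 genes (Benjamini-Hochberg). The labels call the arrays biological replicates. Single values were tested by exact permutation of livers. Members and lists were chosen with earlier results of these data known. Named were all members, up to 4 called genes of each pathway list and 3 of each marker list with the largest absolute difference, and the 5 nearest profiles to Pkhd1 and Bicc1; other genes were chosen after their values were seen. Alternatives varied normalization, filter, probe sets, variance model, array weights, threshold, marker summary, the replicate number as a block, and each liver left out. Centring on the median of the brightest 25% of genes was added after the data were seen. So were, separately, leaving out both control 5 and PCK 6, and the share called among genes above the median signal. A promoter motif search was planned and is not reported here. Figures used matplotlib 3.10.9.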

Additional observations from a re-analysis of the deposited data

Results flagged for a closer look

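In control 5 the Pkhd1 signal was 6.60 (log2), while the nearest other control was at 7.07, a gap of 0.764 of the range of the 6 controls, which is above Dixon's 95% critical value for 6 samples. Alg8 was at 6.68 in the same liver, against 7.19 in the nearest control (gap 0.684 of the range). Pkhd1 minus the bile duct marker mean was 0.29 there, against 0.75 in the nearest control (gap 0.772 of the range), a value that holds the same Pkhd1 signal. These were 3 of 22 groups looked at, where chance gives about 1 in 20. Without control 5 the difference of Pkhd1 between groups was 0.95 (limma adjusted p = 0.000771).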

How the results depend on the processing

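The call of 5 members became 4 under the replicate block, in 7 of the 12 fits that each left out 1 liver, with genes above the median signal only and at an adjusted p under 0.01; elsewhere it was 5. The member lost was Sec63, except that the signal filter left out Pkd2. Pkhd1, Bicc1 and Prkcsh kept their calls in all 21 alternative fits at the 0.05 threshold (0.83 to 1.14, 1.24 to 1.60 and 0.31 to 0.35), Pkd2 in the 20 that hold it (0.30 to 0.35), and Sec63 in 13 of 21 (-0.16 to -0.11). Pkd1, Ganab, Lrp5 and Alg8 were called in none, and the sign of Pkd1, Lrp5 and Alg8 differed between fits. The gains over the bile duct marker mean ranged over the livers left out singly from 0.41 to 0.56 for Pkhd1 and from 0.73 to 1.03 for Bicc1. Over all genes 6362 were called, 5423 with the replicate block and 4606 with the signal filter, which tests fewer genes; 45.3% of calls were higher in PCK livers, 55.1% after cyclic loess. Among single named genes, lists and pairs no called value changed direction, 34 calls of single genes were lost and 13 list counts moved by over 1.5 times. Of these 8 were for the polycystin and fibrocystin relatives, whose 2 calls became 0 or 1 (without PCK 5, PCK 6 or control 3, without control 5 and PCK 6, with the block, after cyclic loess, with the signal filter and at 0.01). At 0.01 the count fell from 24 to 13 for protein entry and N-glycan genes, from 9 to 5 for other cystic genes and from 13 to 8 for stellate markers, and the signal filter, which leaves out dim genes, took Wnt genes from 23 to 15 and cyclic AMP genes from 11 to 7. Same-numbered livers mostly did not deviate together (correlations of deviations -0.137 to 0.165, and 1 of 6 PCK livers was closest to its own number). The livers numbered 6, at 0.165, were above the cutoff of 0.1 set for pairing. The main fit therefore used no pairing, though this check cannot exclude one. With the block the gains over the marker mean were 0.50 and 0.91 (exact sign-flip permutation p = 0.0312 for both, the lowest that this test can give). Genes near the floor of the signal have folds that are not exact.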

Other observations

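The complex that attaches the glycan to new proteins, downstream of Alg8, held genes that went both ways; they were chosen after their values were seen. Of its alternative catalytic subunits, Stt3a was higher by 0.18 ± 0.041 and Stt3b lower (-0.25 ± 0.031; log2, SE; limma adjusted p = 0.00491 and 8.38e-05), with no overlap between PCK and control livers for either. The shared subunits Ddost and Rpn2 were higher by 0.23 and 0.20 (limma adjusted p = 0.00275 and 0.00162), while Dad1 (0.081), Ostc (0.083), Magt1 (0.011) and Krtcap2 (-0.0094) did not pass (limma adjusted p = 0.433, 0.347, 0.914 and 0.954). Among the partners of Sec63, Sec62 was lower (-0.21; limma adjusted p = 0.0147), while Sec61a1, the channel itself, was at 0.13 and did not pass (limma adjusted p = 0.187).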
